A study of Mus musculus with 4 samples.

Results

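The transcription factors and the coactivator that carry alternative activation, the state that macrophages enter under interleukin-4 (IL-4), were followed through Irf4, Batf3, Klf4, Pparg, Rxra, Ppargc1b, Myc and Bhlhe40. These 8 genes were chosen by name, with earlier results of these data known. All 8 were found by symbol among the 52550 Ensembl genes of the deposited table. Transcripts were measured by RNA-seq in mouse macrophages that had been derived from bone marrow over 7 days in M-CSF, a macrophage growth factor, at 20 ng/mL. The 4 groups were OGT knockout cells at 24 h and at 0 h, and wild-type (WT) cells at 24 h and at 0 h. IL-4 was used at 20 ng/mL for 24 h, and the 0 h cells were taken as untreated because of their labelled time, all 4 groups having the same treatment label. OGT is the enzyme that modifies intracellular proteins with single O-GlcNAc sugars. For the strain, age and sex of the mice, the part of Ogt removed and how it was removed, nothing is given in the sources used here. Each group held 1 library, so no value can be set against a spread between cultures, and the differences below describe these 4 libraries. As no label names an untreated culture of the same 24 h, IL-4 and time in culture cannot be told apart. The words IL-4 response and induced, where used of these libraries, name only the difference between 24 h and 0 h.

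IL-4 binds its receptor and activates the transcription factor STAT6, which switches on a further layer of regulators. IRF4 binds DNA weakly on its own and more strongly beside partners such as BATF-family proteins, at composite elements. KLF4 is a zinc-finger factor that works with STAT6 in macrophages. PPARγ, encoded by Pparg, is a lipid-sensing nuclear receptor that binds DNA as a heterodimer with RXRα, encoded by Rxra. PGC-1β, encoded by Ppargc1b, is a coactivator that raises mitochondrial gene expression and fatty acid oxidation. MYC and BHLHE40 are basic helix-loop-helix proteins, and both recognise the E-box CACGTG.

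Promoter windows of 300 bases, from 250 bases before to 50 bases after a RefSeq start site (GRCm38.p6), were at hand for 5 of the 8 genes in 8 windows, with 3 windows for Pparg and 2 for Rxra. The other genes are Ppargc1b, Myc and Bhlhe40. The windows of Batf3, Klf4 and Irf4 are shown because Irf4 and Klf4 had the largest differences after IL-4, and because Batf3 and Klf4 hold the E-box that MYC and BHLHE40 recognise. Capitals mark the E-box CACGTG, the only motif searched that these 3 windows hold, and each window reads 5′ to 3′ on the strand of its gene.
Batf3, chr1:191098164-191098463, + strand: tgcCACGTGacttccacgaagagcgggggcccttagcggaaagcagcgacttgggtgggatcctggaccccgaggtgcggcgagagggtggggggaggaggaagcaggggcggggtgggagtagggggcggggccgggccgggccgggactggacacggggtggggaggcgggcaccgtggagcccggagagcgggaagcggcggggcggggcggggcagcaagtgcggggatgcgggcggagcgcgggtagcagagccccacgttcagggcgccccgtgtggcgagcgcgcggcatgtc
Klf4, chr4:55532426-55532725, − strand: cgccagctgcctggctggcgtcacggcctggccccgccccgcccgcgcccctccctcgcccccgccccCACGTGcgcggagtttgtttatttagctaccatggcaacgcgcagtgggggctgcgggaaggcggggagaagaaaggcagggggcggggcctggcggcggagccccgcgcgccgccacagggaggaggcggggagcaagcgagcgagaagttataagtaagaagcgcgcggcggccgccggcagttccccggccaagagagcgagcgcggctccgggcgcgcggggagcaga
Irf4, chr13:30748983-30749282, + strand: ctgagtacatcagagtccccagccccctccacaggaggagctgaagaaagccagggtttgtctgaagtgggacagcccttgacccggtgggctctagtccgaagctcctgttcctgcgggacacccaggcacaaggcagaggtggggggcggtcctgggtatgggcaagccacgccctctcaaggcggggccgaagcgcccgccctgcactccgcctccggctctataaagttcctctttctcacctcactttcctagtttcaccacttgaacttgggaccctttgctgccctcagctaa

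The E-box began at position −247 from the start site in Batf3 and at position −182 in Klf4. Of 32851 windows of the same length in the table, 7.15% hold it. The KLF motif GGGTGTG was found in 1 of the 3 Pparg windows and in 1 of the 2 Rxra windows, against 7.95% of all windows. Matches were sought on both strands. None of the 8 windows held the STAT6 motif TTCNNNNGAA (6.95% of all windows), the interferon response element GAAANNGAAA (3.44%), the AP-1 motif TGANTCA (7.81%) or a PPAR and RXR repeat of AGGTCA with 1 base between the copies (0.0396%). No match overlapped another. The window of Irf4 held no match, and G and C made up 61.0% of it, against 75.7% in Batf3, 74.3% in Klf4 and a median of 52.7% over all windows. These matches describe the letters of the windows only.

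Values are FPKM, fragments scaled to transcript length and library size, as the authors deposited them. A difference is the change in log2(FPKM + 1), which understates the change of genes near or under 1 FPKM, so the plain ratio of FPKM is given beside it. A gene was kept for a comparison where any library in it reached 1 FPKM, and a difference of at least 1 on the log2 scale is called 2-fold. The FPKM totals ran from 338704 to 353093. Depth had to be estimated from the values, at 40.1 to 44.5 fragments for each 2 kb transcript present at 1 FPKM. Ogt itself was measured at 14.5 FPKM in knockout cells and 29.8 FPKM in WT cells at 24 h, and at 14.2 FPKM in knockout cells and 27.4 FPKM in WT cells at 0 h, so the knockout held 48.5% and 51.8% of the WT level. A gene-level value would also count any Ogt transcripts that lack a deleted part, and what the remaining signal rests on was not tested. All 7 macrophage markers were present in every library, and their summed level was 6337 FPKM in the knockout at 24 h, 15419 in the knockout at 0 h, 6314 in WT at 24 h and 18475 in WT at 0 h, most of it Lyz2. Of these 7 genes, 5 were 2-fold lower at 24 h in the knockout and 4 in WT.

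After 24 h of IL-4, 7 of the 8 regulators were at least 2-fold higher than at 0 h in both genotypes. Rxra was the exception, and was lower by less than 2-fold. Among all kept genes, 5.16% were 2-fold higher and 5.99% were 2-fold lower in the knockout, against 4.76% and 6.26% in WT. The 8 were picked as known regulators of this state, with earlier results of these data known, so the count is not independent of that choice. Ppargc1b, under 1 FPKM at 0 h in both genotypes, was kept only through its 24 h values. The differences of the 7 genes lay between 1.56 and 3.78 on the log2 scale in the knockout and between 1.73 and 3.98 in WT. The median over the 8 was 2.73 in the knockout and 2.63 in WT, where the median over all kept genes was 0.03 in the knockout and 0.02 in WT. The 24 h values of each of the 7 stood above both of its 0 h values, whichever genotype they came from.

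**Figure D1:**
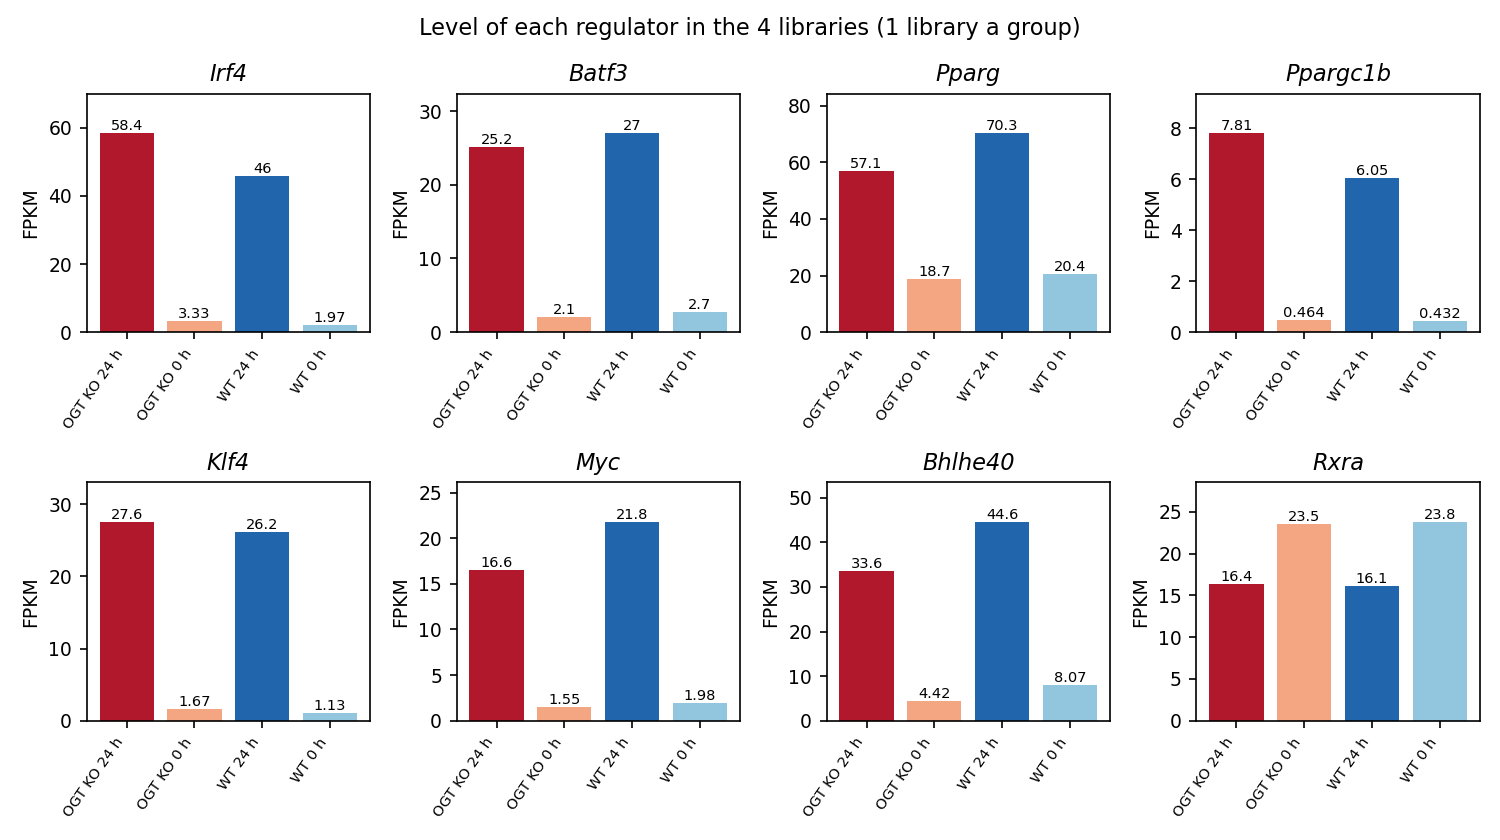
FPKM of each of the 8 regulators in the OGT knockout at 24 h and 0 h and in WT at 24 h and 0 h, 1 library a bar, each panel with its own axis from 0. In 7 panels both 24 h bars stand above both 0 h bars; in the Rxra panel the 24 h bars, at 16.4 and 16.1 FPKM, stand below the 0 h bars at 23.5 and 23.8 FPKM.

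Irf4 (ENSMUSG00000021356, GRCm38 chromosome 13, 30749226 to 30766976, + strand) encodes the interferon regulatory factor that in mice is needed for much of the alternative activation programme. It was measured at 58.4 FPKM in the knockout at 24 h, 3.33 in the knockout at 0 h, 46.0 in WT at 24 h and 1.97 in WT at 0 h. The 24 h level was 17.5 times the 0 h level in the knockout (log2 difference 3.78) and 23.3 times it in WT (3.98). By the log2 difference, Irf4 ranked 21 of 11577 kept genes in the knockout and 12 of 11687 in WT, and was the furthest of the 8 regulators in both. Within the 9 genes of the IRF family it held rank 2 at 24 h and rank 8 at 0 h, in both genotypes. Its share of the family's summed FPKM was 29.0% at 24 h and 1.49% at 0 h in the knockout, and 23.5% and 0.982% in WT.

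The other IRF genes did not follow Irf4. Of the 7 others kept, none was 2-fold higher at 24 h in either genotype, and 4 were 2-fold lower in the knockout and 1 in WT (median −1.02 in the knockout and −0.67 in WT). Irf7, the interferon-induced amplifier of type I interferon genes, stood at 4.91 FPKM at 24 h against 54.5 at 0 h in the knockout (log2 −3.23) and at 7.50 at 24 h against 50.5 at 0 h in WT (−2.60). Irf1, Irf8 and Irf9, further interferon-linked members, were just past 2-fold in the knockout (−1.14, −1.09 and −1.02) and under it in WT (−0.67, −0.92 and −0.83). The difference between those responses reached 2-fold for none of the 3. With a pseudocount of 5, 2 IRF genes, Irf4 counted, were past 2-fold in the knockout, against 5 with a pseudocount of 1. Irf8, which acts in the identity of macrophages and dendritic cells, was above Irf4 at 0 h and below it at 24 h: the ratio of Irf4 to Irf8 was 3.10 at 24 h and 0.0811 at 0 h in the knockout, and 2.58 and 0.0568 in WT.

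Batf3 (ENSMUSG00000026630, chromosome 1, 191097847 to 191108945, + strand), a basic leucine zipper factor best known for the development of cross-presenting dendritic cells, was at 25.2 FPKM in the knockout at 24 h, 2.10 in the knockout at 0 h, 27.0 in WT at 24 h and 2.70 in WT at 0 h. The ratio of 24 h to 0 h was 12.0 in the knockout (log2 3.08) and 10.0 in WT (2.92). Its relative Batf, which can pair with IRF4 in the same way, was under 2-fold between times, at 3.97 FPKM at 24 h and 4.51 at 0 h in the knockout and at 4.86 at 24 h and 6.47 at 0 h in WT. Batf3 was thus above Batf at 24 h, by a ratio of 6.34 in the knockout and 5.56 in WT, and below it at 0 h, by a ratio of 0.466 in the knockout and 0.417 in WT. In the BATF and AP-1 list, 2 of the 7 other kept genes were 2-fold higher at 24 h and none was 2-fold lower, in both genotypes (median 0.64 in the knockout and 0.71 in WT). Fosl2, an AP-1 subunit, was at 25.4 FPKM at 24 h against 2.70 at 0 h in the knockout (2.83) and at 24.0 at 24 h against 2.57 at 0 h in WT (2.81). Jund, whose exons share 877 of 1668 bases with an annotated neighbour, came to 1.19 in the knockout and 1.25 in WT.

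Irf4 and Batf3 are also regulators of dendritic cells, so markers of those cells were read in the same libraries. Of 8 markers, 7 were under 1 FPKM in all 4 libraries, among them Zbtb46, Flt3, Xcr1 and Clec9a, and the highest single value was 1.89 FPKM, for Ccr7 in WT at 0 h. Their summed level was 2.15 FPKM in the knockout at 24 h, 2.76 in the knockout at 0 h, 1.44 in WT at 24 h and 3.50 in WT at 0 h. The sum was lower at 24 h than at 0 h in both genotypes, and Ccr7 was its largest single part in every library. Zbtb46, a transcription factor gene of classical dendritic cells, went the other way under 1 FPKM, at 0.48 FPKM at 24 h against 0.052 at 0 h in the knockout and 0.37 FPKM at 24 h against 0.074 at 0 h in WT. The part of such cells in the levels of Irf4 and Batf3 was not tested. In bulk RNA, fewer cells of a type and less RNA per cell cannot be told apart.

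Of the partners of these factors, Stat6 was at 52.3 and 51.1 FPKM in the knockout at 24 h and 0 h, and at 50.2 and 51.9 in WT. The pioneer factor gene of myeloid cells, Spi1, was at 81.9 and 101 FPKM in the knockout and 83.8 and 96.0 in WT. Of the 7 partner genes kept, 1 was 2-fold higher at 24 h in both genotypes, namely Egr2, another IL-4-induced factor, at 14.1 FPKM at 24 h against 3.83 at 0 h in the knockout (1.65) and 61.1 at 24 h against 9.69 at 0 h in WT (2.54). Egr2 was the only gene of this list past 2-fold between genotypes.

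Klf4 (ENSMUSG00000003032, chromosome 4, 55527143 to 55532466, − strand) had a level of 27.6 FPKM in the knockout at 24 h, 1.67 in the knockout at 0 h, 26.2 in WT at 24 h and 1.13 in WT at 0 h. Its ratio of 24 h to 0 h was 16.5 in the knockout (log2 3.42) and 23.1 in WT (3.67). At 24 h the knockout was at 105% of the WT level and at 0 h at 148%, so the ratios differ mostly through the 0 h values, which rest on an estimated 102 fragments in the knockout and 76.8 in WT. Among 14 KLF genes Klf4 held rank 2 at 24 h and rank 9 at 0 h in the knockout, and ranks 3 and 10 in WT.

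Of the 9 other KLF genes kept, Klf9 alone was 2-fold higher at 24 h (median of the 9, 0.08 in the knockout and 0.15 in WT). Klf9, a hormone-responsive relative, was at 19.6 FPKM at 24 h against 1.39 at 0 h in the knockout (3.11) and at 29.9 at 24 h against 3.93 at 0 h in WT (2.65). Klf11 was at 2.00 FPKM at 24 h against 4.16 at 0 h in the knockout (−0.78). That is under 2-fold on the log2(FPKM + 1) scale and just past it in plain FPKM. In WT, Klf11 passed 2-fold on both, at 2.00 FPKM at 24 h against 5.02 at 0 h. Klf6, the KLF gene with the highest FPKM in every library, held 50.5 FPKM at 24 h and 62.0 at 0 h in the knockout, and 54.2 and 67.6 in WT.

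Pparg (ENSMUSG00000000440, chromosome 6, 115360951 to 115490399, + strand) was already expressed at 0 h, above every regulator here but Rxra. It was measured at 57.1 FPKM in the knockout at 24 h, 18.7 in the knockout at 0 h, 70.3 in WT at 24 h and 20.4 in WT at 0 h. Its ratio of 24 h to 0 h, 3.05 in the knockout (log2 1.56) and 3.44 in WT (1.73), was the smallest of the 7 induced genes in both genotypes. The gene-level value sums all 7 annotated transcripts, so the start site in use was not resolved.

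Rxra (ENSMUSG00000015846, chromosome 2, 27676440 to 27762957, + strand) had the highest FPKM of the 8 at 0 h and held rank 7 at 24 h, in both genotypes. It stood at 16.4 FPKM in the knockout at 24 h, 23.5 in the knockout at 0 h, 16.1 in WT at 24 h and 23.8 in WT at 0 h. The differences of −0.50 in the knockout and −0.53 in WT are common ones, since 32.7% and 30.0% of kept genes lay at least as far from 0. The ratio of Pparg to Rxra therefore stood at 3.49 at 24 h and 0.796 at 0 h in the knockout, and at 4.35 and 0.858 in WT. Transcripts of Pparg were thus below those of Rxra at 0 h and above them at 24 h.

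Among the other nuclear receptors of the list, 2 of 9 kept genes were 2-fold higher at 24 h in the knockout (median −0.16), and in WT 1 was higher and 1 lower (median −0.49). In the knockout, the vitamin D receptor gene Vdr was at 5.15 FPKM at 24 h against 0.15 at 0 h (2.42). The retinoic acid receptor gene Rarg was at 9.97 FPKM at 24 h against 3.99 at 0 h there (1.14). In WT, Rarg was at 8.74 FPKM at 24 h against 4.28 at 0 h (0.88). That is under 2-fold on the log2(FPKM + 1) scale and just past it in plain FPKM. In WT, Vdr was at 3.26 FPKM at 24 h against 0.23 at 0 h (1.79), and Ppard, which encodes the ubiquitous relative PPARδ, was at 2.68 at 24 h against 6.51 at 0 h (−1.03). Ppard was under 2-fold in the knockout, at 3.75 FPKM at 24 h against 5.34 at 0 h (−0.42). With a pseudocount of 5 the list, Pparg counted, had 1 gene past 2-fold in each genotype, against 3. Ppara and Rxrg were listed at 0 in all 4 libraries. None of the 10 coregulators of nuclear receptors, which include the corepressor Ncor1 and the coactivators Ncoa1 to Ncoa3, reached 2-fold between times in either genotype.

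Genes known to be controlled by PPAR and RXR did not move as a block. Of 14 kept, 2 were 2-fold higher and 1 was 2-fold lower at 24 h in each genotype, with medians of 0.47 in the knockout and 0.12 in WT. Lpl, which encodes lipoprotein lipase, was higher in both, at 787 FPKM at 24 h against 244 at 0 h in the knockout (1.68) and 855 at 24 h against 315 at 0 h in WT (1.44). Cd36, the fatty acid receptor gene, was past 2-fold in the knockout, at 447 FPKM at 24 h against 190 at 0 h (1.23), and under it in WT, at 789 at 24 h against 459 at 0 h (0.78). Angptl4, an inhibitor of lipoprotein lipase, was lower in both genotypes, at 1.10 FPKM at 24 h against 4.69 at 0 h in the knockout (−1.43) and 1.47 at 24 h against 6.75 at 0 h in WT (−1.65). Tgm2, a transglutaminase gene whose exons overlap those of 2 other annotated genes, was at 39.5 FPKM at 24 h against 26.3 at 0 h in the knockout (0.57) and at 79.0 at 24 h against 24.4 at 0 h in WT (1.66). Its response was lower in the knockout by 1.09 on the log2 scale, and it was the only gene of the list past 2-fold in that difference.

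Pparg is also the master regulator of fat cells. Of 5 adipocyte markers, Lep, Plin1 and Cidec were listed at 0 in all 4 libraries and Cfd was at most 0.05 FPKM. Adipoq, which encodes adiponectin, was listed at 1.66 FPKM in the knockout and 1.93 in WT at 24 h, and at 0 in both at 0 h.

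Ppargc1b (ENSMUSG00000033871, chromosome 18, 61298136 to 61400431, − strand) was the least abundant of the 8 in every library. It was at 7.81 FPKM in the knockout at 24 h, 0.46 in the knockout at 0 h, 6.05 in WT at 24 h and 0.43 in WT at 0 h. The ratio of 24 h to 0 h was 16.8 in the knockout and 14.0 in WT, of the same order as those of Irf4 and Klf4, and the log2 differences of 2.59 and 2.30 are smaller because of the pseudocount. The 0 h values rest on an estimated 37.1 fragments in the knockout and 38.4 in WT. Its relative Ppargc1a, the main coactivator of muscle and brown fat, was listed at 0 in all 4 libraries. Of the other 5 kept genes of this list, none was 2-fold different between times in either genotype. Esrra, the receptor that PGC-1β coactivates, was at 14.4 and 10.2 FPKM in the knockout at 24 h and 0 h and at 14.4 and 11.5 in WT. The microRNA gene Mir378a, which lies inside Ppargc1b, was listed at 0 in all 4 libraries. These were made with a kit for mRNA, so the 0 does not give the level of the mature microRNA.

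Myc (ENSMUSG00000022346, chromosome 15, 61985391 to 61990374, + strand), a driver of growth and ribosome production, was at 16.6 FPKM in the knockout at 24 h, 1.55 in the knockout at 0 h, 21.8 in WT at 24 h and 1.98 in WT at 0 h. The ratios of 24 h to 0 h were close, 10.7 in the knockout (log2 2.78) and 11.0 in WT (2.94). Of 8 other kept genes of the MYC and MAX network, none was 2-fold different between times on the log2(FPKM + 1) scale in either genotype. The ratio of Myc to Max, its obligate partner, was 1.10 at 24 h and 0.0813 at 0 h in the knockout, and 1.09 and 0.103 in WT. Mxd1, whose product competes with MYC for MAX, was at 2.44 and 4.93 FPKM in the knockout at 24 h and 0 h (−0.78) and at 2.52 and 4.96 in WT (−0.76). In plain FPKM the difference of Mxd1 in the knockout was just past 2-fold.

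Known MYC target genes, most of them of ribosome production, were then counted. In the knockout 16 of 17 kept genes had positive differences and 3 passed 2-fold (median 0.82). In WT 18 of 18 were positive and 7 passed 2-fold (median 0.92). Among all kept genes, 5.16% were 2-fold higher in the knockout and 4.76% in WT, with medians of 0.03 and 0.02. The share of all kept genes with positive differences was not counted. Nop16, a ribosome assembly factor gene, was at 25.3 FPKM at 24 h against 7.62 at 0 h in the knockout (1.61) and 17.4 at 24 h against 4.87 at 0 h in WT (1.65). Srm, which encodes spermidine synthase, was at 12.9 FPKM at 24 h against 3.66 at 0 h in the knockout (1.58) and 13.9 at 24 h against 5.40 at 0 h in WT (1.22). Rrs1 was at 0.95 in the knockout and 1.39 in WT, and Nop56 at 0.82 and 1.22, on the log2 scale. Nolc1, the remaining gene past 2-fold in the knockout (1.06) and also past it in WT (1.15), was picked after its values were seen. These counts depend on the pseudocount: at 0.1 the knockout count was 6, and at 5 the WT count was 2.

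Bhlhe40 (ENSMUSG00000030103, chromosome 6, 108660629 to 108666925, + strand), a repressor that in mouse macrophages bears on proliferation and Il10, was at 33.6 FPKM in the knockout at 24 h, 4.42 in the knockout at 0 h, 44.6 in WT at 24 h and 8.07 in WT at 0 h. Its ratio of 24 h to 0 h was 7.60 in the knockout (log2 2.67) and 5.53 in WT (2.33). Of its 4705 exon bases, 118 are shared with 0610040F04Rik on the other strand, which was listed at 0.01 FPKM or less. Its paralog Bhlhe41, of whose 6720 exon bases 1280 are shared with an annotated neighbour, went the other way, at 2.84 FPKM at 24 h against 7.88 at 0 h in the knockout (−1.21) and at 1.92 at 24 h against 8.81 at 0 h in WT (−1.75). The ratio of Bhlhe40 to Bhlhe41 was 11.8 at 24 h and 0.561 at 0 h in the knockout, and 23.3 and 0.915 in WT.

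BHLHE40 takes part in the circadian clock, where it represses E-box genes. Of 14 other clock genes kept in each genotype, 11 had negative differences in the knockout and 13 in WT (median −0.48 in the knockout and −0.58 in WT). The 14 are not the same genes, since Npas2 was kept in the knockout alone and Per2 in WT alone. Of the 14 in each genotype, 6 were 2-fold lower in the knockout and 5 in WT, and 1 was 2-fold higher in each. Among all kept genes, 5.99% were 2-fold lower in the knockout and 6.26% in WT, with medians of 0.03 and 0.02. The share of all kept genes with negative differences was not counted. Dbp, an output gene of the clock that shares 539 of 2993 exon bases with Sphk2, was at 1.61 FPKM at 24 h against 9.11 at 0 h in the knockout (−1.95) and 1.41 at 24 h against 12.9 at 0 h in WT (−2.53). Nr1d1, which encodes the clock repressor REV-ERBα and shares 263 of 3077 exon bases with Thra, was at 0.91 FPKM at 24 h against 4.34 at 0 h in the knockout (−1.49) and 0.69 at 24 h against 3.20 at 0 h in WT (−1.31). Nr1d2 (−1.22 and −1.23) and Per3 (−1.06 and −1.17) were also 2-fold lower in the knockout and in WT, and Tef was at −1.08 in the knockout and, under 2-fold, at −0.78 in WT. These 3 were picked after their values were seen. With a pseudocount of 5 the list, Bhlhe40 counted, had 3 genes past 2-fold in each genotype, against 8 in the knockout and 7 in WT with a pseudocount of 1. Nfil3, a repressor that competes with DBP for the same sites, was the gene that was higher, at 57.2 FPKM at 24 h against 6.81 at 0 h in the knockout (2.90) and 67.4 at 24 h against 5.58 at 0 h in WT (3.38). The core clock genes Arntl, Clock, Cry1 and Cry2 stayed under 2-fold in both genotypes. The hour of harvest is not given in the sources used here, and its part in these values was not tested.

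**Figure D2:**
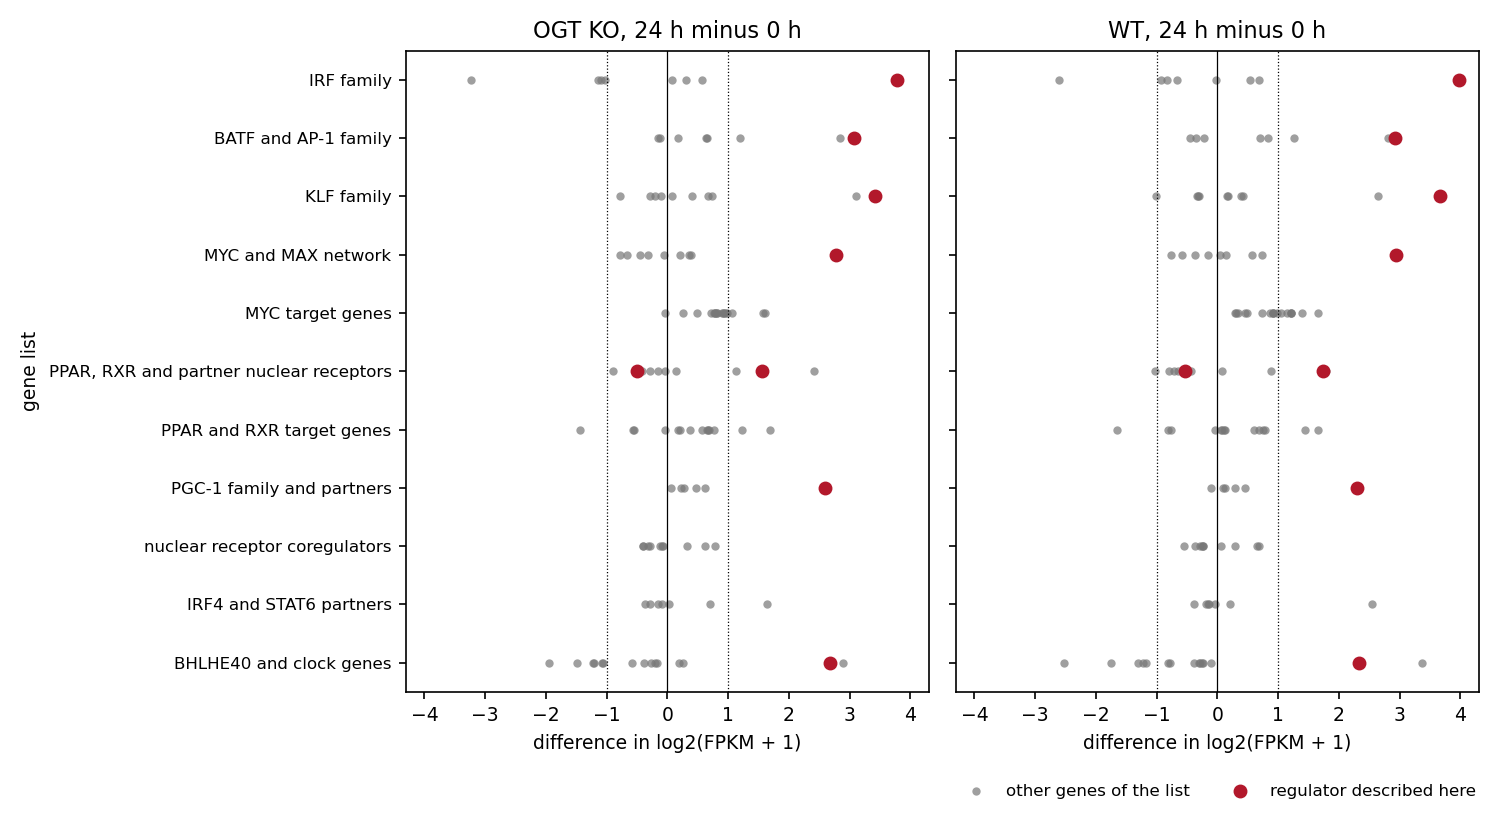
Difference between 24 h and 0 h in log2(FPKM + 1) of kept genes in 11 related lists, in the OGT knockout on the left and WT on the right; red points are the regulators described, grey points the other genes, and dotted lines mark 2-fold. Irf4, Batf3, Klf4, Myc and Ppargc1b lie to the right of all other genes of their own families in both panels, while Vdr lies beyond Pparg.

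The knockout and WT were then compared at each time, the question being whether loss of OGT altered this layer of regulators. None of the 8 regulators was 2-fold different between genotypes at 24 h, and none of the 7 kept at 0 h was. Among all kept genes, 0.832% were 2-fold higher and 0.619% were 2-fold lower in the knockout at 24 h, against 0.88% and 0.871% at 0 h, so a count of 0 among the regulators is near the background. The medians over the regulators were −0.04 at 24 h and −0.12 at 0 h, beside −0.05 at both times over all kept genes.

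At 24 h the differences ran from −0.40 to 0.34 on the log2 scale. Irf4 was at 58.4 FPKM in knockout cells against 46.0 in WT cells, 127% of the WT level (log2 0.34). Ppargc1b was at 7.81 FPKM in knockout cells against 6.05 in WT cells, 129% of WT (0.32), and the order of these genes depends on the pseudocount. Bhlhe40 was the lowest at 33.6 FPKM in knockout cells against 44.6 in WT cells (−0.40), next to Myc at 16.6 FPKM in knockout cells against 21.8 in WT cells (−0.38) and Pparg at 57.1 FPKM in knockout cells against 70.3 in WT cells (−0.30). These are ordinary sizes, since 13.0% of kept genes lay at least as far from 0 as Bhlhe40 and 18.1% at least as far as Irf4. Klf4 (0.07), Batf3 (−0.10) and Rxra (0.02) were at 105%, 93.2% and 101% of WT.

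At 0 h the difference farthest from 0 among the 7 kept regulators was that of Bhlhe40, at 4.42 FPKM in knockout cells against 8.07 in WT cells, or 54.8% of the WT level (−0.74). At 0 h, 3.53% of kept genes lay at least as far from 0. On the log2(FPKM + 1) scale it was the only regulator past 1.5-fold, in a comparison where 3.34% of kept genes were 1.5-fold lower. The value rests on an estimated 417 fragments in the knockout and 844 in WT. Irf4 went the other way, at 3.33 FPKM in knockout cells against 1.97 in WT cells and 169% of WT (0.55), with 7.12% of kept genes at least as far from 0. Klf4 was at 1.67 FPKM in knockout cells against 1.13 in WT cells (0.33). Batf3 was at 2.10 in knockout cells against 2.70 in WT cells (−0.25), and Myc was at 1.55 in knockout cells against 1.98 in WT cells (−0.23). Pparg was at 18.7 in knockout cells against 20.4 in WT cells (−0.12). Rxra was at 23.5 FPKM in knockout cells against 23.8 in WT cells (−0.01). Ppargc1b, at 0.46 FPKM in knockout cells against 0.43 in WT cells, fell under the filter.

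**Figure D3:**
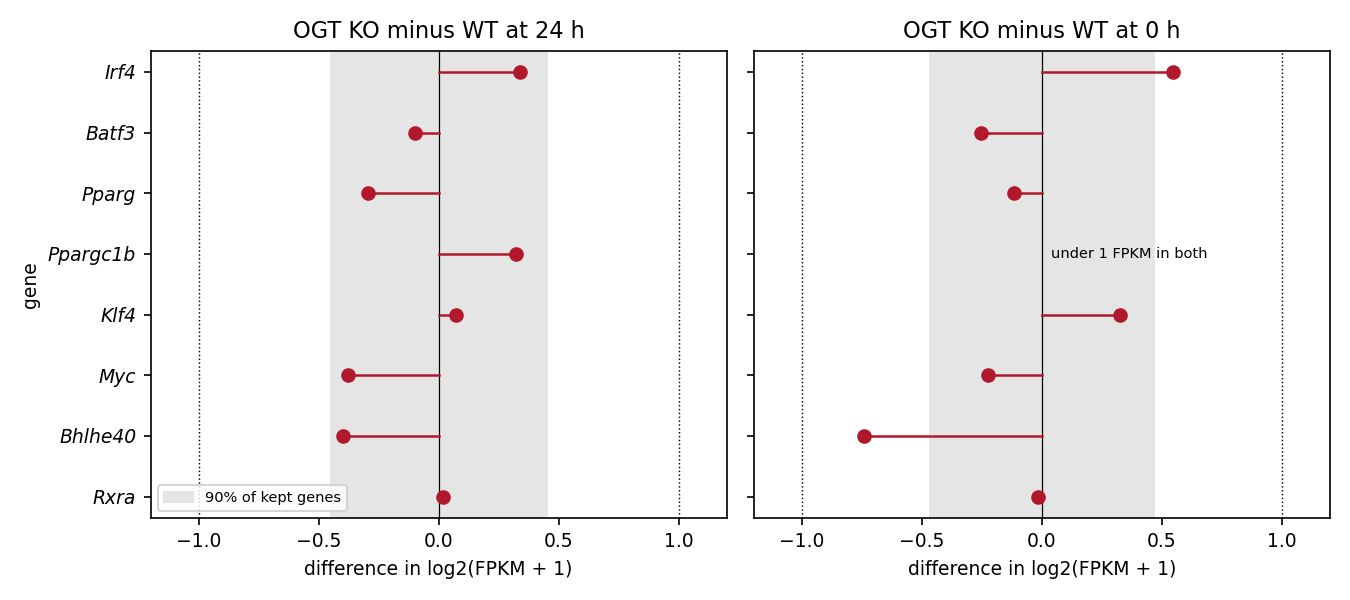
OGT knockout minus WT in log2(FPKM + 1) for each regulator, at 24 h on the left and 0 h on the right; the grey band holds 90% of kept genes and dotted lines mark 2-fold. All 8 lie in the band at 24 h, and at 0 h Bhlhe40 (−0.74) and Irf4 (0.55) lie outside it.

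The comparisons at 24 h and 0 h share no library. Whether their cultures came from the same mice is not given in the sources used here. In both, Bhlhe40, Myc, Pparg and Batf3 had negative differences and Irf4 and Klf4 positive ones, while Rxra was at 0.02 at 24 h and −0.01 at 0 h. All of these were under 2-fold. Ppargc1b was kept in the 24 h comparison alone. How many of all kept genes had the same sign at both times was not counted.

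In the related lists few genes passed 2-fold between genotypes. At 24 h, Egr2 was lower in the knockout, at 14.1 FPKM in knockout cells against 61.1 in WT cells (−2.04). At 0 h, Egr2 (3.83 FPKM in knockout cells against 9.69 in WT cells, −1.15), Klf9 (1.39 FPKM in knockout cells against 3.93 in WT cells, −1.04) and Cd36 (190 FPKM in knockout cells against 459 in WT cells, −1.27) were lower in the knockout. Klf9 came under 2-fold with the libraries rescaled, and Klf9 and Egr2 did so with a pseudocount of 5. MYC target genes had 14 of 18 negative differences at 24 h and none past 2-fold (median −0.20, beside −0.05 over all kept genes). At 0 h, 11 of 17 were negative and the median was −0.06, beside the same −0.05. The share of all kept genes with negative differences was not counted at either time. With the libraries rescaled by the median ratio, the median over all kept genes at 24 h was 0.01. Among the macrophage markers, Itgam was 2-fold lower in the knockout at 24 h, at 31.1 FPKM in knockout cells against 66.7 in WT cells (−1.07), and was at −0.17 at 0 h. Fcgr1 was under 2-fold, at 0.63 at 24 h and 0.66 at 0 h. The part of either in the differences of the regulators was not tested.

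The last comparison set the knockout response against the WT response, each being the difference between 24 h and 0 h. None of the 8 regulators differed by 2-fold, where 2.42% of 12000 kept genes did. The differences ran from −0.26 for Klf4 to 0.34 for Bhlhe40. Of the 7 induced genes, Bhlhe40, Ppargc1b (0.29) and Batf3 (0.16) had the larger response in the knockout. Klf4, Irf4 (−0.21), Pparg (−0.18) and Myc (−0.15) had the larger response in WT. For Irf4 the direction turned with a pseudocount of 5, at 0.06. At least 18.0% of kept genes lay as far from 0 as each of them. For Bhlhe40 the larger plain ratio in the knockout came with a lower level at both times, and for Irf4 and Klf4 the smaller plain ratio came with a higher level at both times.

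**Figure D4:**
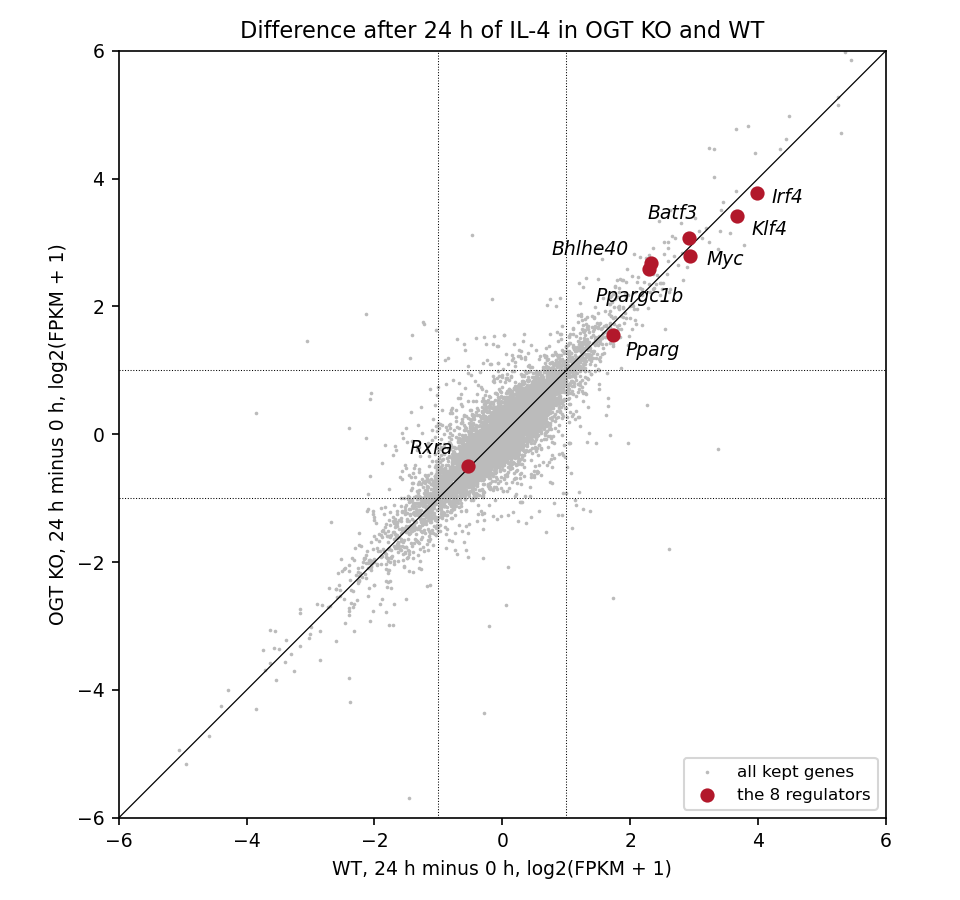
Difference between 24 h and 0 h in log2(FPKM + 1) in WT (x axis) and in the OGT knockout (y axis), for genes kept in both comparisons in grey and the 8 regulators in red; the solid line marks equal responses and dotted lines mark 2-fold, and 3 of 11264 genes lie beyond the axes, which end at −6 and 6. The 7 induced regulators lie in the upper right corner close to the line, from Pparg at 1.73 and 1.56 to Irf4 at 3.98 and 3.78, and Rxra lies below 0 on both axes.

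The profiles of the regulators over the 4 libraries were compared with one another by the Euclidean distance between log2(FPKM + 1) values centred on each gene's own mean. Batf3 and Myc were the closest pair, at a distance of 0.24, followed by Irf4 and Klf4 at 0.41 and Myc and Bhlhe40 at 0.51. Irf4 and Rxra were the farthest apart, at 4.42. With 4 libraries such a distance holds little more than the difference between 24 h and 0 h and the difference between genotypes.

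By the same distance, the nearest neighbours were sought among 6654 other protein-coding genes that reached 5 FPKM in any of the libraries. Nearest to Irf4 were Slc7a2, a transporter of cationic amino acids (0.33), the chemokine gene Ccl24 (0.56) and Lrrc32 (0.58). Slc7a2, which shares 635 of 9135 exon bases with a neighbour, was at 21.0 and 0.59 FPKM in the knockout at 24 h and 0 h, and at 20.8 and 0.38 in WT. Nearest to Klf4 were Tarm1 (0.29), Slc7a2 again and the cytokine signalling inhibitor gene Socs1 (both 0.35). Nearest to Batf3 were Gm28036 (0.18), which shares 3755 of its 5823 exon bases with Cpne1, Flrt2 (0.23) and the guanine deaminase gene Gda (0.24). Myc had Pcdh7 (0.28), which shares 2235 of 10604 exon bases with a neighbour, the kinase gene Matk (0.30) and Gm28036 (0.33) as its nearest genes.

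Pparg had the closest match of all, the translation factor gene Eif5a (0.06), then Atf3 (0.13). Eif5a was at 273 and 91.3 FPKM in the knockout at 24 h and 0 h, and at 328 and 94.6 in WT. Nearest to Ppargc1b were the cytokine receptor gene Il27ra (0.11), Dhrs9 (0.17) and the corepressor gene Hr (0.18). Bhlhe40 was nearest to Chil3, a chitinase-like marker of alternative activation (0.16), then to the transferrin receptor gene Tfrc (0.23) and Adam8 (0.32). Chil3 was at 1164 and 182 FPKM in the knockout at 24 h and 0 h, and at 1738 and 334 in WT. Like Bhlhe40 it was higher at 24 h and lower in the knockout at both times, a likeness built into its choice by this distance. Chil3 has a near-identical relative, Chil4, and its value is less certain.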

How the data were processed

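A SMARTer kit for mRNA was used, per the labels' protocols. The tools STAR and StringTie and the build GRCm38 come from the submitters' processing notes. For the annotation release and strand setting, nothing is given in the sources used here. The deposited table gives 1 value per gene and library for 52550 genes and names no unit. The authors' values were read as FPKM because they are not whole and their totals differ between libraries. Symbols, positions and exons came from GENCODE M21 (GRCm38). A symbol was found for 52403 genes, and values under 1 symbol were added up, giving 52476 names.

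The members and the 11 related and 8 marker lists were chosen with earlier results of these data known. Named were the 8 regulators, Ogt, up to 4 members of each related list past 2-fold in a comparison, and the 3 nearest genes of each regulator past 2-fold. Other genes of the lists that the text names were picked after their values were seen. Some genes that the rule names are not reported here. Each of the 5 comparisons used log2(FPKM + 1), genes at 1 FPKM or more and a 2-fold threshold. With 1 library a group no test was run, and no p-value is given. What 1 fragment is worth was taken from the most common product of value and length among genes with 1 exon of at least 1000 bases. Fragments of a regulator were estimated from that and the summed length of its exons. Such estimates carry no interval. The procedure was tested on simulated data, made from genes at 5 FPKM or more in WT at 0 h. That simulation held counting noise alone, with no spread between cultures, and did not cover lower values. Alternatives were pseudocounts of 0.1 and 5, no filter, a filter at 5 FPKM, rescaling by the median ratio between libraries, scaling each library to the same total, and a 1.5-fold threshold. Python 3.11.15, numpy 2.4.6, pandas 2.3.3 and matplotlib 3.10.9 were used.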

Additional observations from a re-analysis of the deposited data

Results flagged for a closer look

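Of the genes named, 10 had knockout differences of opposite sign at 24 h and 0 h, each at least 0.1 on the log2 scale. The difference between the times was not tested, since each value rests on 1 library a group. Tgm2 was at −0.98 at 24 h and 0.11 at 0 h, Irf7 at −0.52 and 0.11, Nop56 at −0.25 and 0.16, Nfil3 at −0.23 and 0.25, and Socs1 at −0.33 and 0.50. Dhrs9 was at 0.51 at 24 h and −0.11 at 0 h, Bhlhe41 at 0.40 and −0.14, Ppard at 0.37 and −0.24, Gda at 0.19 and −0.17, and Dbp at 0.12 and −0.46. None of the 8 regulators was among them.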

How the results depend on the processing

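The count of regulators past 2-fold stayed at 7 for the IL-4 response of each genotype under all 7 alternatives, and at 0 for the other comparisons, except that 1, Bhlhe40 at 0 h, passed a 1.5-fold threshold. The log2 responses of the 7 induced genes ranged from 1.23 to 4.09 in the knockout and from 1.02 to 4.48 in WT over the alternatives. The background counts moved far more. Knockout against WT at 0 h had 201 genes past 2-fold, 438 with a pseudocount of 0.1, 43 with 5, 106 with a filter at 5 FPKM, 641 with each library scaled to the same total and 702 at 1.5-fold. At 24 h the count was 164, against 388, 39, 93, 559 and 608 in the same order. The knockout response minus the WT response had 291, against 662, 72, 141, 920 and 831. For the IL-4 response the counts were 1290 in the knockout and 1288 in WT, 2031 and 1971 with a pseudocount of 0.1, 592 and 557 with 5, 2210 and 2151 with each library scaled to the same total, and 3143 and 3115 at 1.5-fold. Without the filter, and with rescaling by the median ratio, these counts stayed within 1.5 times. Scaling to the same total makes the pseudocount smaller against the values by its construction. Of 385 counts over related lists, 341 stayed within 1.5 times. With a pseudocount of 5 the clock list had 3 genes past 2-fold in each genotype, against 8 in the knockout and 7 in WT, and the nuclear receptor list had 1 in each, against 3. No paired analysis was possible because the labels give no replicate numbers that pair libraries across groups, and no result here comes from a test. Depth limits the 0 h values most, those of Ppargc1b resting on an estimated 37.1 and 38.4 fragments.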

Other observations

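Beside Egr2, which was past 2-fold at both times, Nr4a1, Klf2, Klf9 and Cebpb of the related lists leaned toward the knockout or WT at both times. They were picked after their values were seen. Among them, Klf9 at 0 h alone was past 2-fold with a pseudocount of 1. Nr4a1, which encodes an orphan nuclear receptor of the immediate early response, differed by 0.83 on the log2 scale at 24 h, with 4.14 FPKM in knockout cells and 1.88 FPKM in WT cells, and by 0.93 at 0 h, with 6.41 and 2.88 FPKM. In plain FPKM, Nr4a1 was past 2-fold at both times. With a pseudocount of 0.1, or with each library scaled to the same total, the nuclear receptor list that holds Nr4a1 had 1 gene past 2-fold between genotypes at each time, against 0. Klf2, which encodes a factor that restrains inflammatory activation, differed by 0.84 at 24 h, with 12.1 and 6.30 FPKM, and by 0.50 at 0 h, with 6.86 and 4.56 FPKM. Klf9 was lower in the knockout at both times (−0.58 at 24 h and −1.04 at 0 h), and Cebpb was too (−0.35 and −0.34). Neutrophil markers summed to 657 FPKM in the knockout and 1016 in WT at 24 h, and to 2084 and 3271 at 0 h. All 7 kept neutrophil markers were lower in the knockout at both times. Their median knockout difference was −0.62 at 24 h and −0.71 at 0 h, beside −0.05 at both times over all kept genes. How many of all kept genes were lower in the knockout was not counted. Of the 5 markers each for B cells and T cells, 1 reached 1 FPKM in any library, Cd79b and Cd4. Summed B cell markers came to 3.09 and 4.86 FPKM at 24 h in the knockout and WT and to 9.40 and 13.9 at 0 h, and T cell markers to 2.11 and 3.13 at 24 h and 18.9 and 25.2 at 0 h. Basophil and mast cell markers summed to at most 2.74 FPKM and fibroblast markers to at most 12.5 FPKM, both in WT at 0 h. The part of such cells in the values of the regulators was not tested.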
